A study of Mus musculus with 6 samples.

Results

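The genes described here are 10 genes of endothelial identity in embryonic mouse pancreas: Vwf, Lipg, Pecam1, Cdh5, Kdr, Flt1, Tek, Tie1, Emcn and Plvap. They were taken by symbol from the deposited gene count table, where each matched 1 of 49671 genes, and all 10 were among the 17519 genes tested. Of these, 8 (Pecam1, Cdh5, Kdr, Flt1, Tek, Tie1, Emcn and Plvap) are treated as pan-endothelial markers, against which Vwf and Lipg are set. RNA came from C57BL/6J pancreata at 14.5 dpc, with 3 samples given 10 µM AMI-5 and 3 controls. AMI-5 inhibits protein methyltransferases, including those that act on arginine. No genetic change was named in either group, and how long treatment lasted is not given in the sources used here. It was asked in the series how the compound affects differentiation of the pancreas.

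Endothelial cells line blood and lymphatic vessels and hold together through cadherin and Pecam1 contacts. They grow and survive through VEGF receptors (Kdr and Flt1) and through the angiopoietin receptor Tek with its relative Tie1. In the developing pancreas, vessels lie close to the epithelium and exchange signals with it. Some endothelial genes, Vwf among them, are made at very unequal levels in different vessels.

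Reads assigned to genes numbered 22894312 to 24805188 in the AMI-5 libraries and 12445425 to 13321899 in the control libraries. Values are given as CPM, counts scaled to a common library size adjusted by TMM, and a call means a Benjamini-Hochberg adjusted p under 0.05 in edgeR's quasi-likelihood test over all genes tested. By that rule 54.1% of genes were called, 27.5% higher and 26.6% lower with AMI-5, so that a call by itself was common. Among the 14571 protein-coding genes tested, 20.1% were higher and 30.6% lower. With library totals alone as scaling, 3962 genes were higher and 5883 lower, against 4820 and 4652 with TMM. Pancreas genes were present in both groups. Ptf1a averaged 70.1 CPM with AMI-5 and 74.5 CPM in controls, and Pdx1 averaged 57.3 CPM and 89.95 CPM in the same order. The labels do not say whether replicates are separate cultures or animals, so p-values reflect the spread among these libraries alone, and that spread may be technical. The labels name an earlier library kit for samples marked A, a mark that the control titles carry and the AMI-5 titles do not carry in that form. Read so, kit and treatment cannot be told apart.

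The promoters of Kdr, Flt1 and Tek, the growth factor receptor genes that were not called, are shown as a description. The RefSeq promoter table (GRCm38.p6) held 5 of the 10 members, and the entries for Vwf, Lipg, Pecam1, Cdh5 and Plvap are missing. The windows shown therefore cannot be compared with those of Vwf and Lipg. The windows of Emcn, not a receptor gene, and of Tie1 are not printed. Of the Tie1 window, 212 of 250 bases lie inside the gene as counted. Each line gives the 250 bases before the start of transcription on the gene's strand, with GGAA or its reverse complement TTCC, the core of ETS factor sites, in capitals. The Kdr window is chr5:75978456-75978705 (minus strand), the Flt1 window chr5:147726012-147726261 (minus strand) and the Tek window chr4:94739039-94739288 (plus strand).
Kdr: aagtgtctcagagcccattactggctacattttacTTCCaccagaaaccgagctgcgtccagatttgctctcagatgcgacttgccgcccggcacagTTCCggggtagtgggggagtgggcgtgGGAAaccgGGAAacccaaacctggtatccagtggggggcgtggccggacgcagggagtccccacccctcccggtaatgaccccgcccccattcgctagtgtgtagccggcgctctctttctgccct
Flt1: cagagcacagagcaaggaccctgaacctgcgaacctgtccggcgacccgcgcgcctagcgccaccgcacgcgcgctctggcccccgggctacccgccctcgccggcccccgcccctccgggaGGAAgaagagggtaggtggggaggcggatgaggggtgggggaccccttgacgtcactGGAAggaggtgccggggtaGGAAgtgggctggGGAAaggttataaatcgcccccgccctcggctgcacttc
Tek: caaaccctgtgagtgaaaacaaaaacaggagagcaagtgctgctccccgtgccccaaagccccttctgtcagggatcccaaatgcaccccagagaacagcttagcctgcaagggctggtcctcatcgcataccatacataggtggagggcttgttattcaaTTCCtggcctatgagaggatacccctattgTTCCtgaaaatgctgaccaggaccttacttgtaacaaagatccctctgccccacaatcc
The core was found 4 times in the Kdr window, 4 times in the Flt1 window and 2 times in the Tek window, counting both strands. In the windows not printed it was found 7 times for Tie1 and 4 times for Emcn. The core is a common word, present in 93.4% of 32851 RefSeq promoter windows of this length. Of these, 18% held 5 or more matches, 33.4% held 4 or more and 76.8% held 2 or more. GGGCGG, the core of SP1 sites, was found 2 times for Kdr and 3 times for Flt1, and 32.7% of all windows held it. TATAAA was found 1 time, for Flt1, against 12.4% of windows with a match, and GATAA in none of the 3 windows, against 22.6%. The 4 motifs were searched on both strands without regard to overlap, and a match describes letters, not binding.

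Vwf and Lipg were far lower in AMI-5 pancreata, while 6 of the 8 pan-endothelial markers were not called. Of the 10 members, 0 were higher, 4 were lower (Vwf, Lipg, Tie1 and Plvap) and 6 were not called. The share lower was 26.6% among all genes and 30.6% among protein-coding genes, and 4 of 10 members is not far above either. A call with a log2 fold change of -1 or less was made for 2.24% of genes, and Vwf and Lipg were the members in that class. The AMI-5 libraries all lay below the control libraries for Vwf, Lipg and Plvap, which was so for 30.6% of genes, and the AMI-5 libraries lay above all controls for 0 members, against 31.3% of genes. The median log2 fold change was -0.14 over the 8 pan-endothelial markers and -0.28 over the 10 members. Over all genes tested it was -0.0013, and over protein-coding genes tested -0.06. Over the 8 markers it was -0.31 without AMI-5 replicate 2, -0.06 without AMI-5 replicate 1, -0.04 without AMI-5 replicate 3, -0.23 without control replicate 2 and -0.08 without control replicate 3. In bulk tissue, fewer cells of a type and less RNA per cell cannot be told apart.

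On mm10, the pan-endothelial markers lie on 5 chromosomes. Cdh5 (ENSMUSG00000031871, plus strand, 104101625-104144511) and Plvap (ENSMUSG00000034845, minus strand, 71497765-71511752) are on chromosome 8. Kdr (ENSMUSG00000062960, minus strand, 75932827-75978458) and Flt1 (ENSMUSG00000029648, minus strand, 147561604-147726011) are on chromosome 5. Tek (ENSMUSG00000006386, plus strand, 94739289-94874976) and Tie1 (ENSMUSG00000033191, minus strand, 118471191-118490061) are on chromosome 4. Pecam1 (ENSMUSG00000020717, minus strand, 106654217-106750628) is on chromosome 11 and Emcn (ENSMUSG00000054690, plus strand, 137341067-137432185) on chromosome 3. Values cover all exons of each gene.

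**Figure D1:**
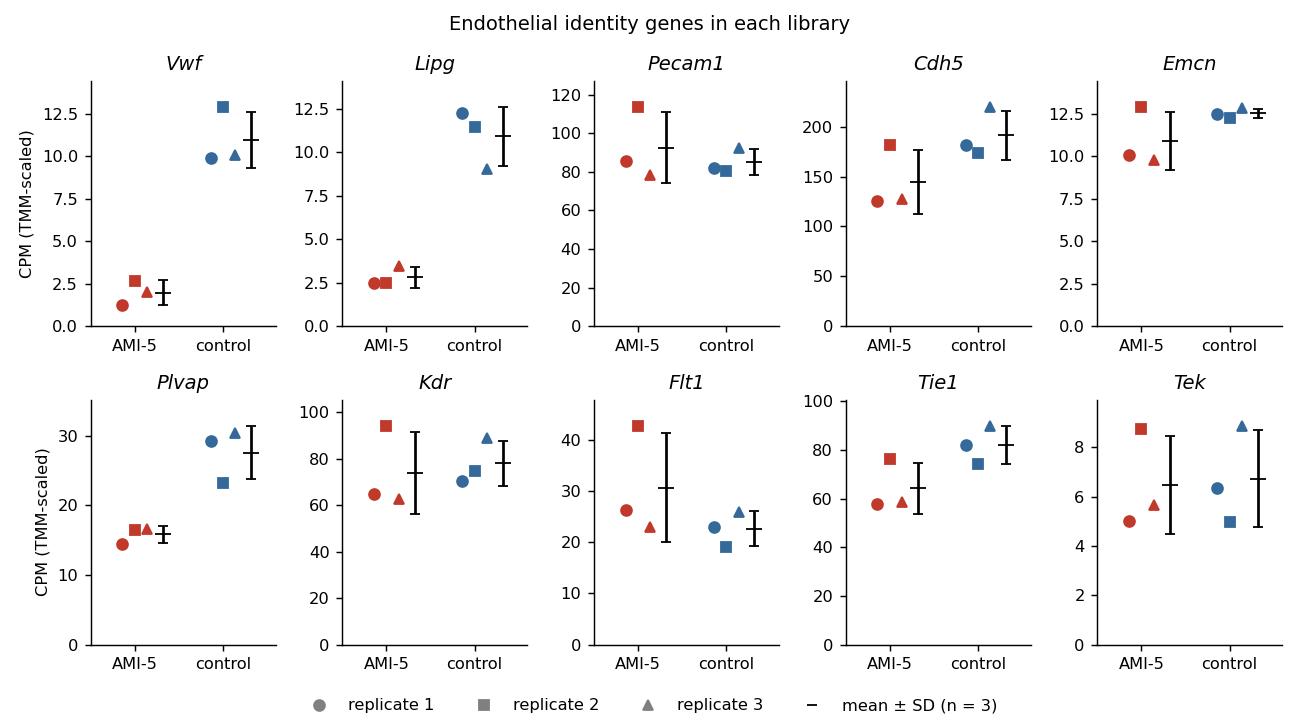
CPM of each of the 10 genes in the 6 libraries, with AMI-5 on the left and control on the right of each panel; circles, squares and triangles are replicates 1, 2 and 3, and bars mark group means with SD. Vwf, Lipg and Plvap show no overlap between groups, and in most other panels AMI-5 replicate 2 is the highest AMI-5 library.

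Vwf, the large glycoprotein that endothelial cells and megakaryocytes store for platelet adhesion, had 1.21, 2.67 and 2.03 CPM in the AMI-5 libraries, against 9.92, 12.9 and 10.1 CPM in the control libraries. The highest AMI-5 library was thus far below the lowest control library. Behind these values were 27, 60 and 48 reads with AMI-5 and 128, 177 and 133 reads in controls, although the AMI-5 libraries were deeper. The mean was 1.97 ± 0.732 CPM with AMI-5 and 10.97 ± 1.68 CPM in controls (SD, n = 3 each), a ratio of 0.180. The log2 fold change was -2.47 (SE 0.24, 95% interval -3.01 to -1.94, edgeR adjusted p = 8.94e-06). Of the 17519 genes tested, 46 had a lower log2 fold change. Vwf (ENSMUSG00000001930) lies on the plus strand of mm10 chromosome 6 at 125546774-125686679.

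Lipg encodes endothelial lipase, a secreted phospholipase that acts on high-density lipoprotein. It had 2.47, 2.45 and 3.46 CPM in the AMI-5 libraries, against 12.2, 11.4 and 9.02 CPM in the control libraries. The AMI-5 values lay close together and entirely below the controls. The reads were 55, 55 and 82 with AMI-5 and 158, 157 and 119 in controls. The mean was 2.79 ± 0.58 CPM with AMI-5 and 10.9 ± 1.68 CPM in controls (SD, n = 3 each), a ratio of 0.257 and a log2 fold change of -1.96 (SE 0.18, 95% interval -2.36 to -1.56, edgeR adjusted p = 2.99e-06). Lipg (ENSMUSG00000053846) lies on the minus strand of chromosome 18 at 74939322-74961263. Vwf and Lipg were called lower in 20 of 20 alternative settings each.

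Among the junction and surface genes, Pecam1 and Emcn were not called, Cdh5 was called only in some settings, and Plvap fell. Pecam1, an adhesion molecule of endothelial contacts that leukocytes and platelets also carry, had 85.6, 114 and 78.7 CPM in the AMI-5 libraries, against 82.0, 80.6 and 92.7 CPM in the control libraries. AMI-5 replicate 2 was the highest of all 6 and the groups overlapped. Its log2 fold change was 0.12 (SE 0.14, 95% interval -0.21 to 0.46, edgeR adjusted p = 0.502).

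Cdh5, the cadherin of endothelial adherens junctions (VE-cadherin), had 125, 182 and 127 CPM in the AMI-5 libraries, against 182, 173 and 220 CPM in the control libraries. AMI-5 replicate 2 lay within the control range and the other AMI-5 libraries lay below it. The log2 fold change was -0.40 (SE 0.18, 95% interval -0.86 to 0.05, edgeR adjusted p = 0.116). Without AMI-5 replicate 2 it was -0.58, with an edgeR adjusted p of 0.000434, in a fit that called 49.7% of genes.

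Emcn, the sialomucin endomucin of venous and capillary endothelium, had 10.05, 12.9 and 9.76 CPM in the AMI-5 libraries, against 12.5, 12.2 and 12.8 CPM in the control libraries. The groups overlapped through AMI-5 replicate 2 alone. This gave a log2 fold change of -0.20 (SE 0.12, 95% interval -0.47 to 0.07, edgeR adjusted p = 0.196). It was called lower in 4 of 20 alternatives, those in which GC and length trends were removed, and its exons were 40.7% GC, the lowest of the 10 members.

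Plvap forms the diaphragms of fenestrae and caveolae, through which blood and tissue exchange solutes. It had 14.4, 16.5 and 16.6 CPM in the AMI-5 libraries, against 29.2, 23.2 and 30.3 CPM in the control libraries. All AMI-5 libraries were below all control libraries, and AMI-5 replicate 2 did not stand out. The mean was 15.9 ± 1.22 CPM with AMI-5 and 27.6 ± 3.84 CPM in controls (SD, n = 3 each), a ratio of 0.576. Plvap had a log2 fold change of -0.80 (SE 0.11, 95% interval -1.04 to -0.55, edgeR adjusted p = 8.01e-05). Its exons were 60.6% GC, the highest of the 10 members. In a fit over protein-coding genes in which the trends of log2 fold change with GC content and gene length had been removed, the log2 fold change of Plvap was -0.40 (edgeR adjusted p = 0.0109), and 41.5% of genes were called.

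The VEGF receptors were not called. Kdr, the main signalling receptor for VEGF-A, had 64.8, 94.2 and 62.8 CPM in the AMI-5 libraries, against 70.6, 74.7 and 88.8 CPM in the control libraries. The highest value was that of AMI-5 replicate 2, and the other AMI-5 libraries were the lowest of the 6. The log2 fold change was -0.08 (SE 0.19, 95% interval -0.56 to 0.40, edgeR adjusted p = 0.760), and without AMI-5 replicate 2 it was -0.27 (edgeR adjusted p = 0.0309).

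Flt1 binds VEGF-A tightly but signals weakly, and also gives rise to a soluble decoy form. It had 26.3, 42.8 and 23.0 CPM in the AMI-5 libraries, against 23.0, 19.1 and 26.0 CPM in the control libraries. AMI-5 replicate 2 was the highest and the remaining libraries intermingled. Flt1 had a log2 fold change of 0.43 (SE 0.29, 95% interval -0.30 to 1.16, edgeR adjusted p = 0.259). Set against Kdr within each library, the log2 ratio of Flt1 was -1.30, -1.14 and -1.45 with AMI-5 and -1.62, -1.97 and -1.77 in controls. These ratios did not overlap, and their means differed by 0.49. Flt1 against Cdh5 differed by 0.81 and Pecam1 against Cdh5 by 0.53, both higher with AMI-5 and also without overlap. Tek against Tie1 differed by 0.30 and overlapped. The Cdh5 pairs set the markers with the highest log2 fold changes, Flt1 (0.43) and Pecam1 (0.12), against Cdh5 (-0.40), which only Plvap was below. Other pairs of pan-endothelial markers were not computed, nor was the share of gene pairs without overlap. Of single genes, 30.6% were without overlap and lower with AMI-5, and 31.3% without overlap and higher. Flt1 thus did not move alike with Kdr, nor Flt1 and Pecam1 with Cdh5, and these ratios were not tested.

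Of the TIE receptors, Tie1 was called lower by a small margin and Tek was not called. Tek (Tie2), which binds the angiopoietins, had 5.03, 8.73 and 5.66 CPM in the AMI-5 libraries, against 6.35, 4.96 and 8.87 CPM in the control libraries. The groups covered nearly the same range. Its log2 fold change was -0.05 (SE 0.26, 95% interval -0.64 to 0.54, edgeR adjusted p = 0.876).

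Tie1, an orphan receptor that pairs with Tek and modulates its signal, had 57.7, 76.5 and 58.7 CPM in the AMI-5 libraries, against 82.2, 74.4 and 89.96 CPM in the control libraries. AMI-5 replicate 2 overlapped the lowest control. The mean was 64.3 ± 10.6 CPM with AMI-5 and 82.2 ± 7.78 CPM in controls (SD, n = 3 each), with a log2 fold change of -0.35 (SE 0.12, 95% interval -0.63 to -0.08, edgeR adjusted p = 0.0358). This call was held in 8 of 20 alternative settings. It was lost without AMI-5 replicate 1 (adjusted p = 0.118), AMI-5 replicate 3 (0.0963), control replicate 1 (0.0977) or control replicate 3 (0.120) in edgeR, and after removal of the GC and length trends over protein-coding genes the log2 fold change was 0.01.

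**Figure D2:**
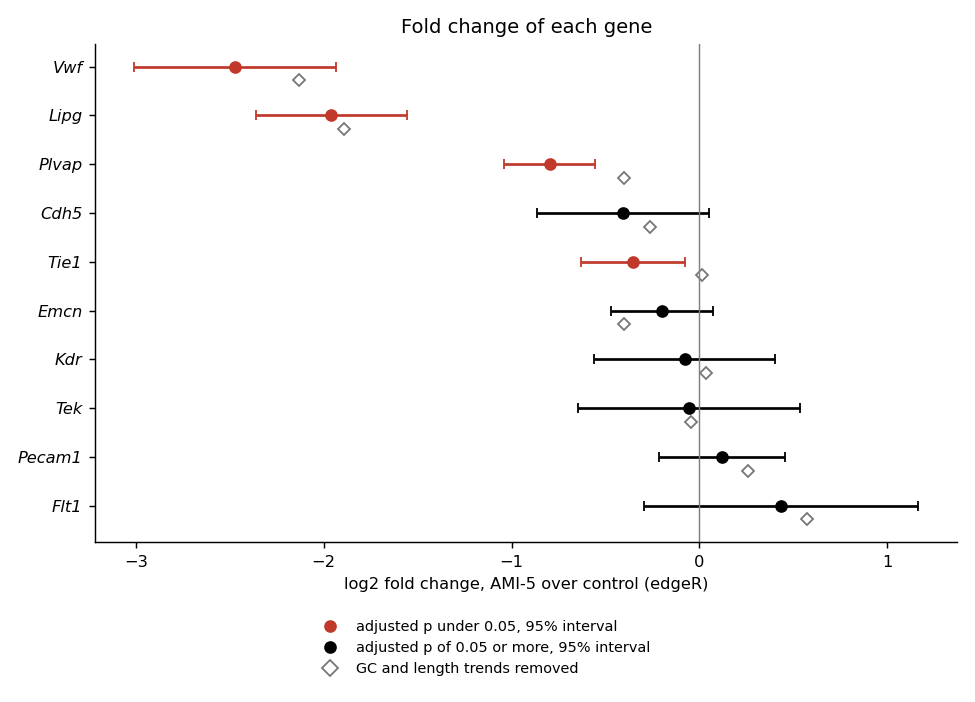
Log2 fold change (AMI-5 over control) of the 10 genes with 95% intervals from the edgeR fit, in red where called; diamonds give the value after removal of the GC and length trends over protein-coding genes. Vwf and Lipg lie lowest, followed by Plvap, and the intervals of Pecam1, Cdh5, Kdr, Flt1, Tek and Emcn cross 0.

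Vwf and Lipg were next set against the pan-endothelial markers within each library, which removes any change that all these genes share. The log2 ratio of Vwf to the mean of the 8 markers was -4.63, -4.00 and -3.90 in the AMI-5 libraries, against -1.95, -1.42 and -2.13 in the control libraries, a difference of -2.35 between the means. For Lipg it was -3.62, -4.12 and -3.14 in the AMI-5 libraries, against -1.64, -1.60 and -2.29 in the control libraries, a difference of -1.78. Neither ratio overlapped between groups. The mean log2 CPM of the 8 markers itself was 5.10 ± 0.283 with AMI-5 and 5.28 ± 0.176 in controls (SD, n = 3 each), a difference of -0.18. By library it was 4.94, 5.43 and 4.94 with AMI-5, against 5.26, 5.12 and 5.47 in controls, so that the groups overlapped through AMI-5 replicate 2 alone and the other AMI-5 libraries lay below all controls.

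All 16 ratios of Vwf or Lipg to a single pan-endothelial gene were lower in every AMI-5 library than in every control library. These ratios reuse the values of Vwf and Lipg, which by themselves did not overlap between groups. They are therefore not 16 separate results. The differences on the log2 scale ran for Vwf between -2.92 (to Flt1) and -1.74 (to Plvap), and for Lipg between -2.36 (to Flt1) and -1.17 (to Plvap). The exact two-sided permutation p was 0.1 for each of the 16, the smallest that 3 libraries against 3 allow, and 0.1 after Benjamini-Hochberg adjustment over the 16. This test could not give a p under 0.05 in this design.

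In reads, Vwf made up 0.957% (95% Clopper-Pearson interval 0.632 to 1.39), 1.45% (1.11 to 1.86) and 1.57% (1.16 to 2.08) of the reads of Vwf and Cdh5 together in the AMI-5 libraries, against 5.18% (4.34 to 6.12), 6.93% (5.98 to 7.99) and 4.39% (3.69 to 5.18) in the control libraries. No interval of one group touched an interval of the other. Lipg made up 1.93%, 1.33% and 2.65% of the reads of Lipg and Cdh5 together in the AMI-5 libraries, against 6.31%, 6.2% and 3.94% in the control libraries. The intervals met at 1 point, between AMI-5 replicate 3 (2.12 to 3.28) and control replicate 3 (3.28 to 4.7). These intervals cover counting error only.

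**Figure D3:**
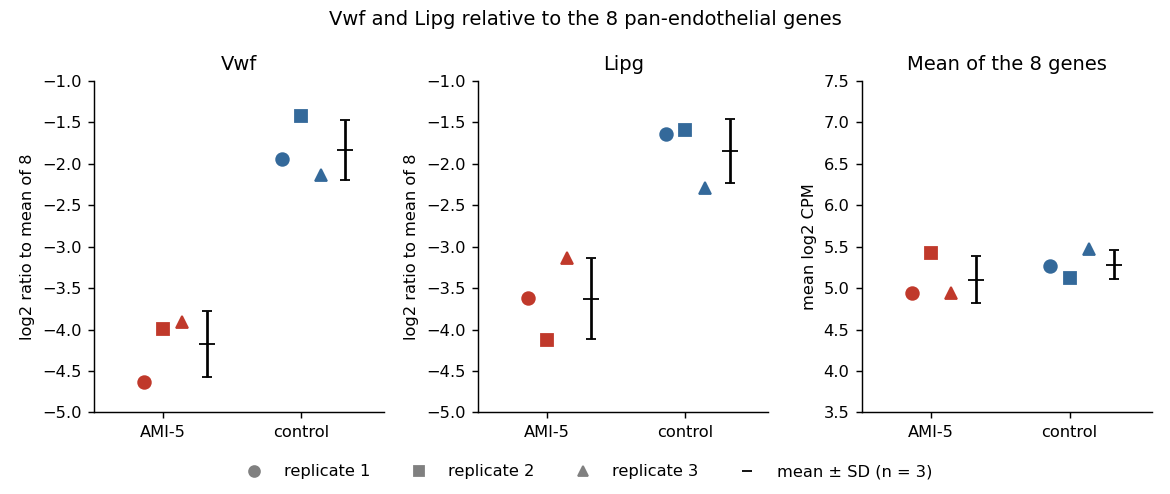
Log2 ratio of Vwf (left panel) and of Lipg (middle panel) to the mean of the 8 pan-endothelial markers, and that mean as log2 CPM (right panel), for each library, AMI-5 left of control; the 3 axes span the same number of log2 units. The ratios separate by group, and the mean of the markers overlaps between groups through AMI-5 replicate 2 (5.43), the other AMI-5 libraries being below all controls.

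Per kilobase of the deposited exon length, Cdh5 was the highest and Vwf the lowest member in both groups, and the order between them differed. With AMI-5 the order of levels was Cdh5 (34.4 CPM per kb), Pecam1 (14.9), Tie1 (13.1), Kdr (8.19), Plvap (7.98), Flt1 (2.27), Emcn (2.01), Tek (1.37), Lipg (0.738) and Vwf (0.123). In controls it was Cdh5 (45.6 CPM per kb), Tie1 (16.7), Plvap (13.9), Pecam1 (13.7), Kdr (8.64), Lipg (2.88), Emcn (2.31), Flt1 (1.68), Tek (1.43) and Vwf (0.683). Lipg thus stood below Tek with AMI-5 and above Emcn in controls, with no overlap of libraries in either case. In controls the separation was very narrow. Lipg in control replicate 3 had 2.38 CPM per kb (119 reads) and Emcn in that library 2.37 (169 reads), so the order of Lipg and Emcn there is uncertain. With AMI-5, neighbours whose libraries overlapped were Pecam1 and Tie1, Kdr and Plvap, Flt1 and Emcn, and Emcn and Tek. In controls they were Tie1 and Plvap, Plvap and Pecam1, and Flt1 and Tek.

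**Figure D4:**
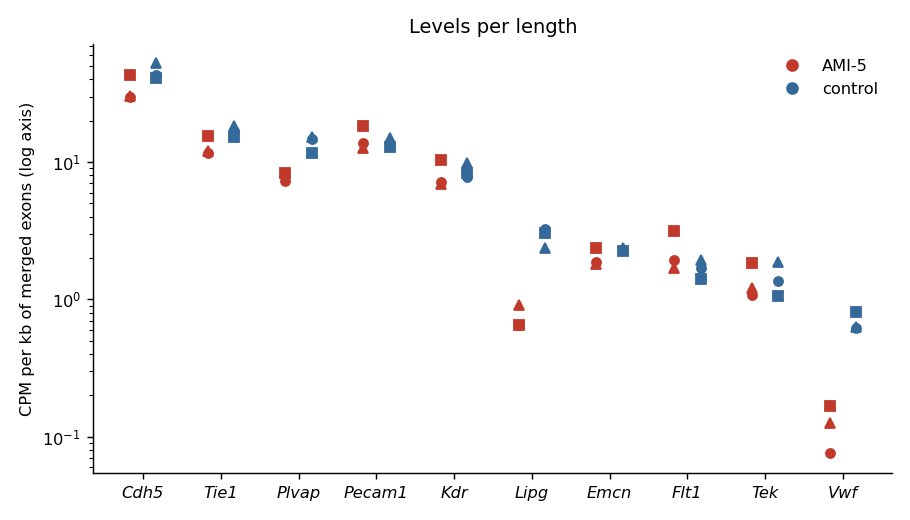
CPM per kilobase (log axis) of each gene, with AMI-5 left of control; circles, squares and triangles are replicates 1, 2 and 3. Cdh5 is the highest and Vwf the lowest in both groups, and Lipg has the lowest level but 1 with AMI-5.

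AMI-5 replicate 2 was the highest AMI-5 library for 7 of the 8 pan-endothelial genes, Plvap being the exception, and control replicate 3 was the highest control for 8 of 8. Vwf deviated from its AMI-5 mean by -0.62, 0.51 and 0.11 on the log2 scale in replicates 1, 2 and 3, and Lipg by -0.16, -0.17 and 0.33. Lipg therefore did not share the high value of AMI-5 replicate 2. In controls, where Kdr deviated by 0.19 and Cdh5 by 0.21 in replicate 3, Vwf deviated by -0.11 and Lipg by -0.26.

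Of 28 further general endothelial genes, 2 rose, 9 fell and 17 were not called, with a median log2 fold change of -0.27. Of all genes, 27.5% rose and 26.6% fell, and of protein-coding genes, 20.1% rose and 30.6% fell. Eng, a TGF-beta co-receptor, averaged 45.7 ± 2.82 CPM with AMI-5 and 57.3 ± 1.86 CPM in controls (log2 fold change -0.33, edgeR adjusted p = 0.000998). Cldn5, a tight junction claudin, averaged 27.3 ± 4.03 CPM with AMI-5 and 38.2 ± 3.21 CPM in controls (log2 fold change -0.48, edgeR adjusted p = 0.00256). The genes that rose were the adhesion G protein-coupled receptors Adgrl4, with a log2 fold change of 0.90 (edgeR adjusted p = 0.000111), and Adgrf5, with 0.62 (edgeR adjusted p = 0.0156). Adgrf5 lost its call without control replicate 1 or control replicate 3. Cd34 and Cd93, the most abundant genes of this list, had log2 fold changes of 0.14 and 0.18 and were not called. The number lower was 15 without AMI-5 replicate 2, 5 without AMI-5 replicate 1, 5 without control replicate 3, and 2 after removal of the GC and length trends over protein-coding genes, where Eng and Cldn5 were no longer called.

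Of 7 arterial genes tested, 5 fell and 0 rose, with a median of -0.31, where 26.6% of all genes fell and 27.5% rose. The number lower was 3 without AMI-5 replicate 1, AMI-5 replicate 3 or control replicate 1. The Notch ligand Dll4, the Notch target Hey1, Efnb2 and the co-receptor Nrp1 had log2 fold changes of -0.30, -0.51, -0.31 and -0.30 in that list, and the gap junction gene Gja5 had -1.73 (edgeR adjusted p = 0.0255). Dll4 kept its call in 7 of 20 alternatives and Gja5 in 12 of 18, and single libraries of either group were enough to lose it. Of 4 venous genes, Nr2f2 fell with a log2 fold change of -0.43 and Ephb4 with -0.39, and the median was -0.41. Which cells of the bulk tissue made the transcripts of the arterial and venous lists was not tested. Of 6 tip and sprouting genes, 4 rose and 0 fell, against 27.5% of all genes that rose, with a median of 0.73, and Pdgfb (-0.10) and Cxcr4 (-0.07) were not called. Apln, a peptide of tip cells, averaged 20.8 ± 3.45 CPM with AMI-5 and 5.67 ± 1.26 CPM in controls (log2 fold change 1.87, edgeR adjusted p = 6.22e-06), and Angpt2, an angiopoietin made by sprouting endothelium, averaged 18.6 ± 3.81 and 8.64 ± 0.172 CPM in the same order (log2 fold change 1.11, edgeR adjusted p = 4.65e-05). Kcne3 and Esm1 rose with log2 fold changes of 1.07 and 0.40. After removal of the GC and length trends over protein-coding genes, 3 arterial genes and 1 venous gene were lower and 5 tip genes higher, and Efnb2, Dll4 and Ephb4 were no longer called. Esm1 turned to -0.13 with the trends of all genes taken out.

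The remaining vessel lists were mixed, and are to be read against 27.5% of all genes higher and 26.6% lower. Of 5 capillary genes tested, 1 rose, the fatty acid carrier Fabp4, with a log2 fold change of 1.43 (edgeR adjusted p = 0.000179), and 0 fell. Of 7 lymphatic genes, 2 rose and 0 fell. Lyve1, also a macrophage gene, had a log2 fold change of 0.60 (edgeR adjusted p = 0.0044), and Ccl21a had 44, 36 and 53 reads with AMI-5 and 0 reads in every control, with 71.6% of its sequence shared with other genes. Prox1, the lymphatic master regulator, which pancreatic epithelium also makes, had -0.13 and was not called.

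**Figure D5:**
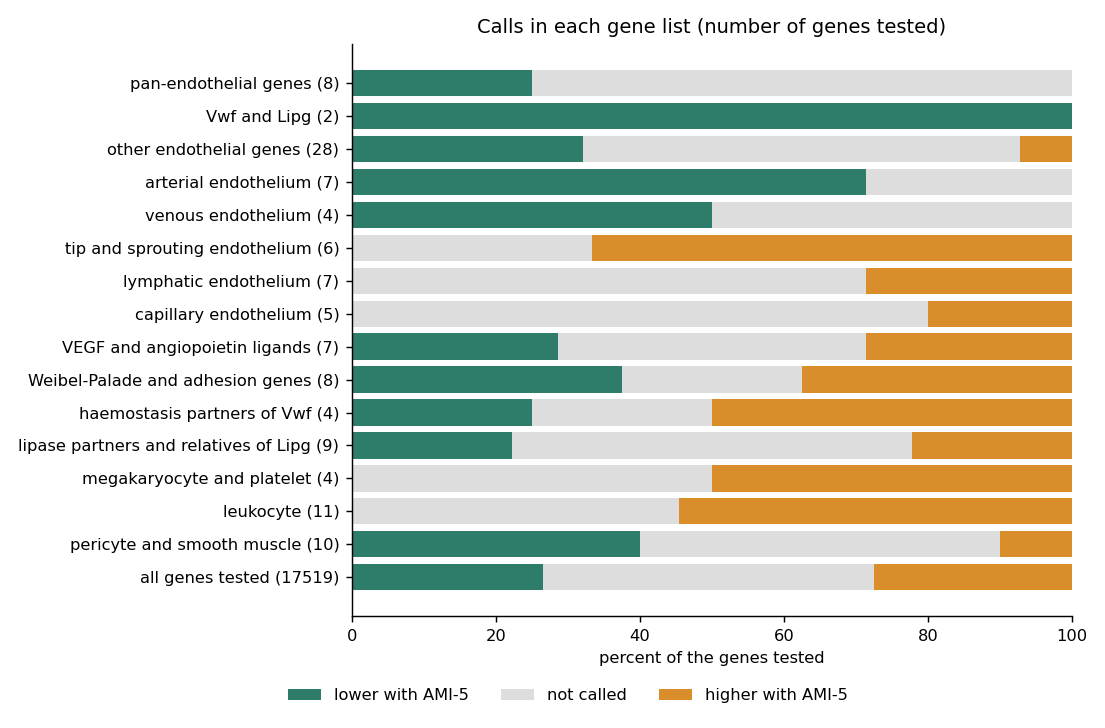
Percent of the tested genes of each list shown called lower with AMI-5 (green), not called (grey) or called higher (orange), with the number tested in parentheses and all 17519 genes at the bottom. The erythroid, mesothelial and epithelial lists are not shown. The arterial and venous lists hold lower calls and no higher ones, and the tip and sprouting list the reverse.

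Vwf is stored in Weibel-Palade bodies, and of 8 tested genes of these bodies and of endothelial adhesion, 3 rose and 3 fell, shares not far from the 27.5% and 26.6% of all genes. Cd63, a tetraspanin of these bodies and of lysosomes in all cells, averaged 235 ± 9.67 CPM with AMI-5 and 368 ± 25 CPM in controls (log2 fold change -0.65, edgeR adjusted p = 4.31e-06), and Icam1 and Plat fell with -0.30 and -0.19. Plat kept its call in 10 of 20 alternatives, and lost it without AMI-5 replicates 1, 2 or 3 or control replicate 3. Icam1 kept its call in 15 of 18, with values from -0.395 to -0.039. Angpt2, which is stored in the same bodies, rose as given above, as did Sele (0.73) and Edn1 (0.55). Of 4 tested genes of haemostasis, Tfpi and Thbd, inhibitors of coagulation at the vessel wall, rose with log2 fold changes of 1.30 and 0.83, and Procr, the protein C receptor, fell with -0.66.

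Of 9 tested relatives and partners of Lipg, 2 rose and 2 fell, where 27.5% of all genes rose and 26.6% fell. Lpl, the lipase of the same family that is anchored to capillaries, averaged 207 ± 31.3 CPM with AMI-5 and 135 ± 33.5 CPM in controls and was not called (log2 fold change 0.62, edgeR adjusted p = 0.0748). Angptl4, an inhibitor of lipases, rose with a log2 fold change of 0.58, and the protease gene Pcsk6 with 0.70. Scarb1, the receptor of high-density lipoprotein, fell with -0.46. Furin, whose product cleaves endothelial lipase, fell with -0.31, a direction that turned when the GC and length trends were removed over protein-coding genes.

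Ligands of the receptors were mixed. Of 7 VEGF and angiopoietin genes tested, 2 rose and 2 fell, shares not far from the 27.5% and 26.6% of all genes. Vegfa, the main ligand of Kdr, averaged 231 ± 33 CPM with AMI-5 and 185 ± 23.7 CPM in controls and was not called (log2 fold change 0.32, edgeR adjusted p = 0.0645), although it was called higher in 13 of 20 alternatives. Vegfb, a ligand of Flt1, fell with a log2 fold change of -0.26, which was 0.15 after removal of the GC and length trends over protein-coding genes. Vegfd fell with -0.65 and was called in 12 of 20 alternatives, not without AMI-5 replicate 1 or 3 or control replicate 2 or 3. Angpt1, the activating ligand of Tek, rose with 0.57 but not without control replicate 2. It was called in 14 of 18 alternatives, with values from 0.19 to 0.74. Angpt2 is given above.

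Vwf is also made by megakaryocytes, and other blood cells sit inside vessels, so their markers are set beside it, to be read against 27.5% of all genes higher and 26.6% lower. Of 11 megakaryocyte and platelet genes, 4 passed the filter, of which Pf4 and Itgb3 rose (log2 fold changes 0.88 and 1.00) and 0 fell. Pf4 was instead called lower, at -1.41, with the GC and length trends of all genes taken out. The summed level of the 11 genes was 22.98 to 35.1 CPM with AMI-5 and 14.4 to 15.7 CPM in controls. Most of that sum was Itgb3, with 17.2, 24.1 and 15.7 CPM with AMI-5 and 8.68, 10.3 and 9.40 CPM in controls. Gp1bb averaged 0.542 CPM with AMI-5 and 0.606 CPM in controls and was not called. Gp9 averaged 0.514 and 0.507 CPM in the same order and was not tested. The list thus did not rise as a whole. The platelet integrin gene Itga2b had 54, 60 and 48 reads with AMI-5 and 27, 21 and 23 reads in controls and was not called. Gp6, the platelet collagen receptor, had 1 read over the AMI-5 libraries and 0 in controls. Leukocyte genes rose in 6 of 11 cases (4 without control replicate 1), with summed levels of 324 to 389 CPM with AMI-5 and 247 to 298 CPM in controls. Of 7 erythroid genes tested, 5 rose and 2, the embryonic globins Hbb-y and Hba-x, fell. Among those that rose, Hbb-bs, Hbb-bt, Hba-a1 and Hba-a2 had 53.2%, 58.3%, 72.3% and 89.3% of their sequence shared with other genes. Their values may therefore not be separate measurements. The number of erythroid genes higher was 1 without control replicate 1, 2 without control replicate 2 and 3 without control replicate 3, and the number lower was 1 without any 1 of the AMI-5 replicates. The summed level of the erythroid list was 95.7, 244 and 81.2 CPM with AMI-5 and 22.1, 16.3 and 39.3 CPM in controls, with AMI-5 replicate 2 highest, as it was for most of the endothelial markers. Of 10 pericyte and smooth muscle genes, 1 rose and 4 fell, with 0 higher and 2 lower without AMI-5 replicate 3, and 0 higher without any 1 of the controls. Their summed level was 804.5 to 904.3 CPM with AMI-5 and 930.5 to 957.3 CPM in controls. Epithelial genes summed to 2064 to 2271 CPM with AMI-5 and 2178 to 2505 CPM in controls, and mesothelial genes to 45.0 to 80.3 CPM and 48.7 to 71.6 CPM in the same order. The part of these shifts in the endothelial values was not tested.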

How the data were processed

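Total RNA of 6 samples was sequenced, 1 strand-specific library each. The deposited values are read counts per gene, made by the authors with bcl2fastq 2.19.1, GSNAP and featureCounts 1.6.2 on mm10, per the submitters' processing notes, with Ensembl 87 per the name of the deposited table. The deposited gene length (other unit, bases of merged exons) was used for levels per kilobase. Read length, the strand option and the handling of multi-mapped reads were not given in the sources used here, and 92 spike-in entries (1 read in all) were left out.

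The main test was that of edgeR 4.0.16 under R 4.3.3 (TMM, filterByExpr, robust quasi-likelihood F test, two-sided), group being the only term. Fold changes (log2) put AMI-5 over control, and levels are CPM. Alternatives covered scaling, filters, DESeq2 1.42.0, voom in limma 3.58.1, leaving out each library, a replicate block, and removal of GC and length trends. Ratios of Vwf or Lipg to single pan-endothelial genes used exact permutation tests over libraries. Symbols, GC content and shared 50-mers came from GENCODE M21. All 10 members shared under 5% of their 50-mers with other genes, and no other gene of the table overlapped their exons.

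The members and gene lists were chosen with earlier results of these data known. The naming rule took from each list the 3 called genes lowest in p and the 2 highest in mean CPM. Kcne3, Adgrf5, Dll4, Gja5, Edn1, Icam1, Vegfd, Hbb-y, Gp6, Gp9, Gp1bb, Itga2b, Pdgfb, Cxcr4, Ptf1a and Pdx1, where outside that rule, were named after their values were seen. Depth was lower in controls, which limits low genes most, and intervals on shares of reads cover counting error only.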

Additional observations from a re-analysis of the deposited data

How the results depend on the processing

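Vwf ranged from -2.72 to -1.99, Lipg from -2.13 to -1.84 and Plvap from -0.91 to -0.40 in log2 fold change over 20 alternatives, and all 3 were called lower in each. Called genes numbered 9472 of 17519 (54.1%), against 5228 of 10915 (47.9%) over unique-sequence protein-coding genes. After removal of GC and length trends over protein-coding genes they numbered 6044 of 14565 (41.5%), and 5509 of 14565 (37.8%) with the replicate block as well. With trends removed over unique-sequence genes, an alternative chosen after seeing the data, they numbered 4223 of 10915 (38.7%). Leaving out 1 library gave 8435 to 9060 calls and 3 to 6 members lower, the 6 without AMI-5 replicate 2. The replicate block gave 9186 calls, and 3 members lower since Tie1 was lost. The correlations of deviations of same-numbered libraries were -0.047, -0.032 and -0.041, and those of differently numbered ones ran from -0.011 to 0.051. These values show no sign of pairing by number, but cannot exclude it. The median of the 8 markers ranged from -0.31 to -0.035 with 1 library left out. Without a filter the median of all genes was 0.14.

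Direction turned for Kdr without a library (-0.27 to 0.041), Tek (-0.31 to 0.19) and Pecam1 (-0.027 to 0.24). With trends removed over all genes, Kdr was 0.11, Tie1 0.013, Eng 0.081, Cd34 -0.033, Dll4 0.037, Ephb4 0.044, Esm1 -0.13, Furin 0.16 and Pf4 -1.41. Over protein-coding genes, Kdr was 0.037, Tie1 0.013, Vegfb 0.15 and Furin 0.024. With trends and the replicate block, Kdr was 0.023, Tie1 0.0043, Vegfb 0.15 and Furin 0.026. Over unique-sequence genes, Kdr was 0.021 and Vegfb 0.13. The cause was not tested. The ratios of Vwf and Lipg to the 8 markers kept their direction in each alternative run. Depth limits low members such as Vwf, with 27 to 60 reads with AMI-5 and 128 to 177 in controls.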

Other observations

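Over the 6 libraries, 869 of 11718 protein-coding genes with a mean of at least 5 CPM had a Pearson r above 0.95 with Vwf in log2 CPM, Ssh1, Gpatch8 and Polm (each 0.999) being nearest. With Lipg 1297 genes did, Cttn, Rela and Sall4 (each 0.998) being nearest. With the mean of the 8 pan-endothelial markers 12 genes did, Gfod1 (0.987), Nfia (0.986) and Enc1 (0.976) being nearest. These values describe 6 libraries in 2 groups and include the difference between groups.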
